A study of Mus musculus with 11 samples.

Results

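Eph receptors and ephrins were followed as 10 genes in RNA-seq libraries of mouse mammary carcinoma cell lines. They were 4 ephrins (Efna1, Efna5, Efnb1 and Efnb2) and 6 receptors (Epha1, Epha2, Ephb2, Ephb3, Ephb4 and Ephb6), taken by symbol from a table of 21846 genes and 11 libraries. All 10 were found, and all 10 passed the filter on low counts in each comparison. A further 12 genes of the family, 8 receptors and 4 ephrins, were read beside them.

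Eph receptors are receptor tyrosine kinases, and ephrins are ligands held on the surface of a neighbouring cell, by a lipid anchor in the A class and by a membrane-spanning stretch in the B class. Signalling therefore needs contact between cells, and it runs forward into the cell with the receptor and in reverse into the cell with the ephrin. In epithelia the family is known for cell sorting, tissue boundaries and adhesion, and in the mammary gland Epha2, Ephb4 and Efnb2 are among its best known members.

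All lines came from mammary tumors of virgin female FVBhuHER2 mice, which carry human HER2 as a transgene, so every group below shares that transgene. MamBo89 (HER2stable) came from a first tumor, called tumor A, and keeps HER2. MamBo43 (HER2labile) came from a second, tumor B, and MamBo38 (HER2loss), which has no HER2 on its surface, came from a tumor that grew after injection of MamBo43. The MamBo89 libraries were AG3 untreated (replicate 1), untreated (replicate 2), 30 days with 30 µg/ml of trastuzumab, an antibody to HER2, followed by 30 days without it (replicate 3), and 60 days with it (replicate 4). The MamBo38 libraries were untreated (replicates 1 and 2), withdrawn from trastuzumab by the first schedule (replicate 3) and treated for 60 days (replicate 4). MamBo43 had 1 untreated library. MamBo43 TRT stands for cells that had largely lost HER2 under trastuzumab. It had 1 library of the withdrawn schedule (replicate 1) and 1 of 60 days (replicate 2). In the culture kept under trastuzumab, the paper still found a small share of HER2-positive cells. AG3 was taken as the MamBo89 clone that the methods list. Library names end in 1 of 2 number codes whose meaning is not given in the sources used here: 8 libraries share the first code, and the other 3, all MamBo38 (replicates 1, 3 and 4), carry the second. HER2-positive therefore stands for 5 libraries (MamBo89 and MamBo43) and HER2-negative for 6 (MamBo38 and MamBo43 TRT). Each line stands for 1 tumor, and all 4 MamBo89 libraries are HER2-positive. The age of the mice that bore tumors A and B is not given in the sources used here. The paper gives ages for injected mice, but not for the mouse whose tumor gave MamBo38.

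The start regions of 3 members are shown because theirs hold an E2-box, the letters CAGGTG or the reverse complement CACCTG, to which repressors of the Zeb and Snail families are known to bind. Each window runs from 250 bases before to 50 bases after the start of the RefSeq transcript (GRCm38.p6), 5′ to 3′ along the gene, with the E2-box in capitals. The window of Efnb2 is the minus strand of chr8:8661193-8661492, that of Epha1 the minus strand of chr6:42373219-42373518, and that of Ephb2 the minus strand of chr4:136835963-136836262.
Efnb2: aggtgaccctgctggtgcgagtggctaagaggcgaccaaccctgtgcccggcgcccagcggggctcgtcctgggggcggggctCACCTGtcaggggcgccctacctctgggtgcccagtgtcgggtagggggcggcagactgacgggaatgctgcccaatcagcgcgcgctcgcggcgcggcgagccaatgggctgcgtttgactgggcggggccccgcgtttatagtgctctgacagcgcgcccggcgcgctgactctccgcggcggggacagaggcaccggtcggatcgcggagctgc
Epha1: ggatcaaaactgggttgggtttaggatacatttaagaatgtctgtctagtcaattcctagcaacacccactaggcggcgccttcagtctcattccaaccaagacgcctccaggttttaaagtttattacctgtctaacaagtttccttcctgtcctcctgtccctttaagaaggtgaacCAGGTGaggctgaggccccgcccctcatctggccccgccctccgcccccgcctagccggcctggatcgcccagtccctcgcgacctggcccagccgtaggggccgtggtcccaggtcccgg
Ephb2: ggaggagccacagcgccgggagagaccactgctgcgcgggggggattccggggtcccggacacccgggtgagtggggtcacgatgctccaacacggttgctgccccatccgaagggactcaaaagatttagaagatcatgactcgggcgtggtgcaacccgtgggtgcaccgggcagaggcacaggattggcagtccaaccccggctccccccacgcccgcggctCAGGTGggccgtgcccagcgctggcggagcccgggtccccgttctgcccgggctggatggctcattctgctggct
The first letter of the E2-box lies at -167 in Efnb2, -71 in Epha1 and -25 in Ephb2, counted from the first base of the RefSeq transcript. The window of Ephb2 starts its transcript outside the GENCODE gene, and the first bases of that transcript were not found in a GENCODE transcript, so the position in Ephb2 rests on the RefSeq start alone. Both strands were searched, and none of the 3 E2-boxes overlaps a GC-box (GGGCGG or CCGCCC). These letters were found in 3 of the 10 members and in 20.2% of all 32851 RefSeq promoter windows of the same length. A GC-box was found in 8 of the 10 members and in 35.7% of all windows. The TATA letters (TATAAA or TTTATA) were found in 1 member, Efnb2, and in 13.6% of all windows. The members' 11 windows held 10 to 38 CpG pairs, against a median of 7 over all windows. These matches are descriptions of letters, and binding was not measured.

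In GRCm38, the build that the labels name as mm10, both classes are spread over the genome. The ephrin genes are Efna1 on chromosome 3 (89271733 to 89281142, minus strand), Efna5 on chromosome 17 (62604184 to 62881317, minus), Efnb1 on the X chromosome (99136130 to 99148991, plus) and Efnb2 on chromosome 8 (8617434 to 8661242, minus). Among the receptor genes, Epha1 (42358487 to 42373268, minus) and Ephb6 (41605482 to 41620509, plus) share chromosome 6 with a gap of 0.738 Mb, and Epha2 (141301240 to 141329384, plus) and Ephb2 (136647539 to 136835988, minus) share chromosome 4 with a gap of 4.47 Mb. Ephb3 is on chromosome 16 (21204755 to 21223305, plus) and Ephb4 on chromosome 5 (137350109 to 137378669, plus). All 10 are protein-coding in GENCODE. Of the 75-base windows along the exons of Epha1, 2.63% also occur in Zyx or 2010010A06Rik, and reads of those stretches cannot be assigned to 1 gene, while the other 9 members share no such window.

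The libraries held 17040454 to 27127662 counts (median 20592201), and the members took 0.039% to 0.118% of them. Levels are given as CPM, the count divided by a TMM-scaled library size (edgeR) and multiplied up to a common depth. A difference was called where edgeR's quasi-likelihood test gave a Benjamini-Hochberg adjusted p under 0.1 and the size of the log2 fold change reached 1. Within a group most libraries differ in trastuzumab schedule, and the labels do not say how cultures were replicated. The methods speak of replicates for each sample, but untreated MamBo43 is 1 library here. The p-values therefore measure the spread between these libraries, in which schedule, culture and technical spread cannot be told apart. The 10 epithelial markers read summed to 3080 to 4339 CPM in MamBo89, 4080 in MamBo43, 385 to 2206 in MamBo43 TRT and 1.44 to 2.73 in MamBo38, where Krt19 and Ocln were at 0. The 10 mesenchymal markers summed to 236 to 2404, 934, 41952 to 48467 and 22530 to 32224 CPM in the same order. Between the HER2 groups, 5 of 9 epithelial markers tested were called lower and 8 of 9 mesenchymal markers higher in HER2-negative libraries. The 8 endothelial markers summed to at most 1.83 CPM in any library. Of 6 immune markers Adgre1 and Cd3e were at 0 in all 11 libraries while Cd68 reached 49.7 CPM in MamBo38. Cd68, the 1 immune marker tested, was called higher in HER2-negative libraries (log2 fold change 1.67, edgeR adjusted p = 0.0885), although the groups overlapped. The 6 neural markers, nearly all of it Map2 outside MamBo38, summed to 27.3 to 97.8 CPM in MamBo89, 126 in MamBo43, 12.1 to 17.5 in MamBo43 TRT and 1.25 to 1.97 in MamBo38, and Map2 was called lower in HER2-negative libraries (log2 fold change -3.49, edgeR adjusted p = 0.0104). The part of these marker differences in the results below was not tested, and in bulk RNA fewer cells of a type and less RNA per cell cannot be told apart.

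**Figure D1:**
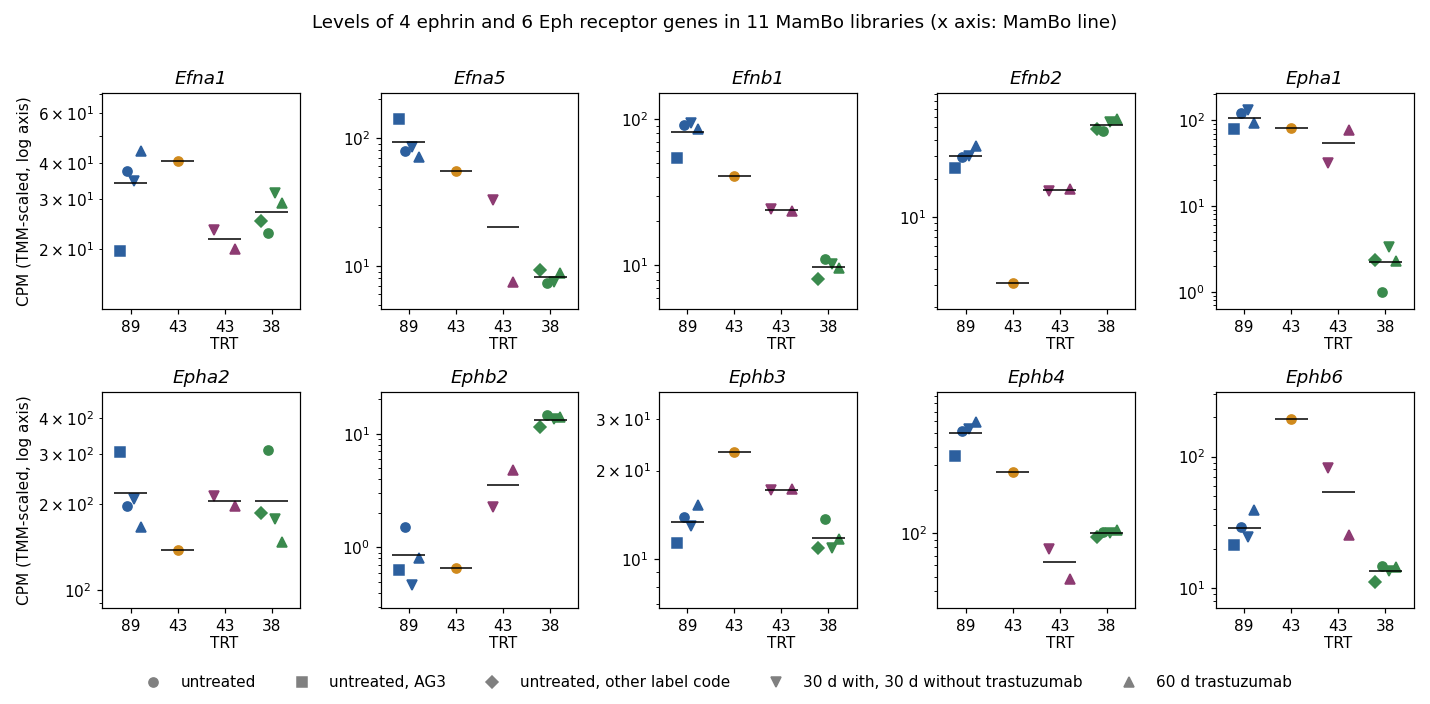
Level of each of the 4 ephrin and 6 receptor genes in each library (points, CPM on a log axis) by MamBo line, with a black line at each group's mean and the marker giving the treatment. Ephb2 lay at 0.466 to 1.52 CPM in MamBo89 and at 11.4 to 14.5 in MamBo38, and Epha1 at 80.0 to 130.1 and 1.0 to 3.34.

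HER2-negative libraries were compared with HER2-positive libraries to ask which members moved with the loss of HER2. Of the 10 members, 1 was called higher (Ephb2) and 4 were called lower (Efna5, Efnb1, Epha1 and Ephb4) in HER2-negative libraries. Of all 12364 genes tested, 15.8% were called higher and 17% lower. By libraries, 1 member lay above and 4 below without overlap, against 17.7% and 17.2% of all genes. The members' median log2 fold change was -0.84, against -0.04 over all genes. MamBo89 is the lone tumor A line and is HER2-positive, so HER2 status and tumor of origin cannot be fully told apart.

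Efna5, an A-class ephrin, had the largest fall of the 4 member ephrins. It was at 140.3, 78.5, 84.3 and 71.6 CPM in MamBo89 replicates 1 to 4 and at 55.6 CPM in MamBo43. In MamBo43 TRT it was at 32.7 CPM after withdrawal and 7.56 CPM at 60 days, and in MamBo38 at 9.27, 7.34, 7.52 and 8.88 CPM. No HER2-negative library reached a HER2-positive library, although the withdrawn culture stood well above the other HER2-negative libraries and the AG3 clone above the other HER2-positive libraries. Efna5 had a log2 fold change of -2.82 (SE 0.45, edgeR adjusted p = 3.6e-04), a fall of 7.06-fold. In a fit with a term for the tumor, which leaves MamBo43 as the lone HER2-positive library against the HER2-negative libraries of tumor B, it was -2.19 (edgeR adjusted p = 0.0318).

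Efnb1, a B-class ephrin known for boundary formation, had its levels in 4 tiers that did not overlap. They were 53.8, 91.1, 94.1 and 84.9 CPM in MamBo89, 40.9 in MamBo43, 24.4 and 23.5 in MamBo43 TRT and 8.02, 11.1, 10.2 and 9.60 in MamBo38. Between the HER2 groups this came to a log2 fold change of -2.34 (SE 0.36, edgeR adjusted p = 2.9e-04), and with the term for the tumor to -1.51 (edgeR adjusted p = 0.0565). The step from MamBo38 up to MamBo43 TRT was called (log2 difference 1.3, SE 0.21, edgeR adjusted p = 0.0017), while the steps from MamBo43 TRT to MamBo43 (0.78 in size) and from MamBo43 to MamBo89 (0.99 in size) were under the fold minimum, with edgeR adjusted p = 0.075 and 0.0429. Without the AG3 clone the last of these steps was 1.09 in size and called. Efnb1 was thus lower in MamBo38 than in the treated cells, which had also largely lost HER2. With the 8 libraries of the first code alone, which hold 1 MamBo38 library, the call between MamBo43 TRT and MamBo38 was lost (log2 difference 1.10, edgeR adjusted p = 0.109).

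Efnb2, the B-class ephrin best known as the partner of Ephb4, had 4 tiers in another order. It was lowest in MamBo43 at 3.09 CPM, and MamBo43 TRT had 15.9 and 16.5 CPM. MamBo89 had 24.2, 29.4, 30.0 and 35.5 CPM, and MamBo38 was highest at 48.5, 46.5, 54.8 and 57.8 CPM. HER2-positive libraries therefore lay on both sides of the treated MamBo43 cells, and the HER2 comparison did not call Efnb2 (log2 fold change 0.70, SE 0.54, edgeR adjusted p = 0.297). When the fit held the term for the tumor, Efnb2 was called higher at 3.68 (edgeR adjusted p = 0.0110).

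Efna1, an A-class ephrin and a known ligand of Epha2, was at 19.8, 37.6, 34.8 and 44.1 CPM in MamBo89, 40.7 in MamBo43, 23.4 and 20.1 in MamBo43 TRT and 25.1, 22.9, 31.4 and 29.1 in MamBo38. The AG3 clone, replicate 1 of MamBo89, lay below all HER2-negative libraries, so the groups overlapped. The HER2 comparison gave a log2 fold change of -0.49 (SE 0.20, edgeR adjusted p = 0.0614), under the fold minimum.

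Ephb4, a B-class receptor whose main ligand is Efnb2, had the smallest adjusted p of the 10 members. It was at 342, 511, 532 and 597 CPM in MamBo89 and 266 in MamBo43, and at 78.3 and 48.4 in MamBo43 TRT and 94.7, 102, 100.6 and 106 in MamBo38. HER2-negative libraries were all below HER2-positive ones, by a log2 fold change of -2.35 (SE 0.26, edgeR adjusted p = 3.3e-05), and in the fit with a term for the tumor by -1.60 (edgeR adjusted p = 0.0076). The treated MamBo43 cells had less Ephb4 than each MamBo38 library, with a log2 difference of -0.67 (SE 0.24, edgeR adjusted p = 0.0579) that was under the fold minimum. Without the withdrawn library it was -1.05 and called (edgeR adjusted p = 0.0396).

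Ephb2, a B-class receptor that binds B-class ephrins, was the member that rose. It was at 0.633, 1.52, 0.466 and 0.816 CPM in MamBo89 and 0.665 in MamBo43, which is 8 to 33 reads a library. MamBo43 TRT had 2.25 and 4.76 CPM, and MamBo38 had 11.4, 14.5, 13.4 and 13.9 CPM. HER2-negative libraries were all above HER2-positive ones, by a log2 fold change of 3.59 (SE 0.55, edgeR adjusted p = 2.8e-04), and within them MamBo43 TRT was below MamBo38 (log2 difference -1.92, SE 0.45, edgeR adjusted p = 0.0102). Without the withdrawn library this step lost its call (-1.47, edgeR adjusted p = 0.102).

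Epha1, an A-class receptor, separated MamBo38 from the other lines. It was at 80.0, 123, 130.1 and 93.8 CPM in MamBo89, 82.0 in MamBo43 and 32.1 and 77.3 in MamBo43 TRT, but at 2.35, 1.0, 3.34 and 2.32 in MamBo38. The 60-day MamBo43 TRT library was just under the lowest HER2-positive library. The HER2 comparison called Epha1 lower (log2 fold change -2.37, SE 1.0, edgeR adjusted p = 0.0671), and this call was lost in 5 of the 11 fits that left out a library (the fits without MamBo38 replicates 1, 3 or 4 or MamBo89 replicates 2 or 3) and in the fit with a term for the tumor (-2.06, edgeR adjusted p = 0.350) or for the library code (-1.47, edgeR adjusted p = 0.183). Without MamBo43 TRT replicate 2 the value was -3.63. MamBo38 against MamBo89 gave -5.57 (SE 0.40, edgeR adjusted p = 9.7e-07), and MamBo43 TRT against MamBo38 gave 4.6 (SE 0.41, edgeR adjusted p = 4.3e-05), both on the log2 scale.

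Ephb6, a B-class receptor whose kinase domain is inactive, stood out in MamBo43. It was at 193 CPM there and at 21.2, 29.1, 24.6 and 39.3 CPM in MamBo89. MamBo43 TRT had 82.0 and 25.5 CPM, and MamBo38 had 11.2, 14.6, 13.5 and 14.6 CPM. HER2 groups overlapped and Ephb6 was not called between them (log2 fold change -1.20, SE 0.72, edgeR adjusted p = 0.182). Without the MamBo43 library that value was -0.09. In the fit with a term for the tumor it was -2.85 (edgeR adjusted p = 0.0214), and without MamBo43 TRT replicate 1 it was -1.97 (edgeR adjusted p = 0.0241). The MamBo43 cells had more Ephb6 than MamBo89 by a log2 difference of 2.75 (SE 0.43, edgeR adjusted p = 0.0015).

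Epha2, the A-class receptor most often described in breast carcinoma, and Ephb3, a B-class receptor, were not called in any of the 5 comparisons of groups. HER2-positive libraries had 138 to 303 CPM of Epha2 (median 196) and HER2-negative libraries 147 to 308 (median 191), with a log2 fold change of 0.01 (SE 0.23, edgeR adjusted p = 0.965). The highest library of each HER2 group, AG3 at 303 CPM and MamBo38 replicate 2 at 308 CPM, stood apart from the rest of its line. MamBo38 replicate 2 is the 1 MamBo38 library with the first code, and with the code as a covariate the log2 difference of Epha2 between MamBo38 and MamBo89 turned from -0.09 to 0.50 (edgeR adjusted p = 0.163). Ephb3 had 11.3 to 23.1 CPM in HER2-positive and 10.9 to 17.3 in HER2-negative libraries (log2 fold change -0.18, SE 0.23, edgeR adjusted p = 0.523), with its highest value in MamBo43. In the fit with a term for the tumor Ephb3 was at -0.77 and Epha2 at 0.56, and neither was called.

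The 4 comparisons between lines share libraries with each other and with the HER2 comparison, so their values stand side by side and are not independent. In MamBo38 against MamBo89, 1 member was higher (Ephb2) and 5 were lower (Efna5, Efnb1, Epha1, Ephb4 and Ephb6), where 19.9% of all 13782 genes tested were higher and 22% lower. The fold was 47.4 lower for Epha1, 11.3 lower for Efna5, 8.33 lower for Efnb1, 4.92 lower for Ephb4, 2.12 lower for Ephb6 and 15.2 higher for Ephb2 in MamBo38. Efnb2 was higher in all 4 MamBo38 libraries with edgeR adjusted p = 4.9e-04, but its log2 difference of 0.80 (SE 0.14) was under the fold minimum. The call of Ephb6 was lost with the first-code libraries alone (log2 difference -0.96, edgeR adjusted p = 0.273) and without MamBo89 replicate 4 (-0.89).

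In MamBo43 TRT against MamBo43, 2 members rose (Efnb2 and Ephb2) and 3 fell (Efna5, Ephb4 and Ephb6), where 13.6% of all genes were called higher and 15.5% lower. Efnb2 rose 5.23-fold (edgeR adjusted p = 3.0e-04) and Ephb2 5.24-fold (edgeR adjusted p = 0.0251), while Ephb4 fell 4.20-fold (edgeR adjusted p = 0.0012) and Ephb6 3.59-fold (edgeR adjusted p = 0.022). Efna5 fell 2.77-fold with edgeR adjusted p = 0.0968, a call that was lost in 8 of the 10 fits that left out a library (all but those without MamBo43 TRT replicate 1 or MamBo89 replicate 1). Without the 60-day library its log2 fold change was -0.76, and that of Ephb2 was 1.75 and not called (edgeR adjusted p = 0.114). Without the withdrawn library the fold change of Efna5 was -2.91 and that of Ephb6 -2.95. The untreated arm was 1 library, assumed in the fit to vary like the other groups, so the spread between untreated MamBo43 cultures is not known from these data.

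In MamBo43 against MamBo89, both HER2-positive, 1 member was higher (Ephb6) and 1 lower (Efnb2), where 11% of all genes were called higher and 7.86% lower. Efnb2 was 9.62-fold lower in MamBo43 (log2 difference -3.27, SE 0.28, edgeR adjusted p = 3.0e-05). In MamBo43 TRT against MamBo38, both HER2-negative, 4 members were higher (Efna5, Efnb1, Epha1 and Ephb6) and 2 lower (Efnb2 and Ephb2), where 10.2% of all genes were called higher and 10.2% lower. Epha1 was 24.3-fold and Ephb6 3.98-fold higher in the treated cells, and Efnb2 3.20-fold lower. The log2 difference of Epha1 ran from 3.84 to 5.11 when a library was left out and reached 5.76 under another alternative. It stayed called in each. The call of Efna5 rested on the withdrawn library: the log2 difference was 1.28 (edgeR adjusted p = 0.055) and without that library -0.12, and the call was also lost without MamBo38 replicate 2 or 3. The call of Ephb6 was lost without it too (0.93, edgeR adjusted p = 0.0654).

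**Figure D2:**
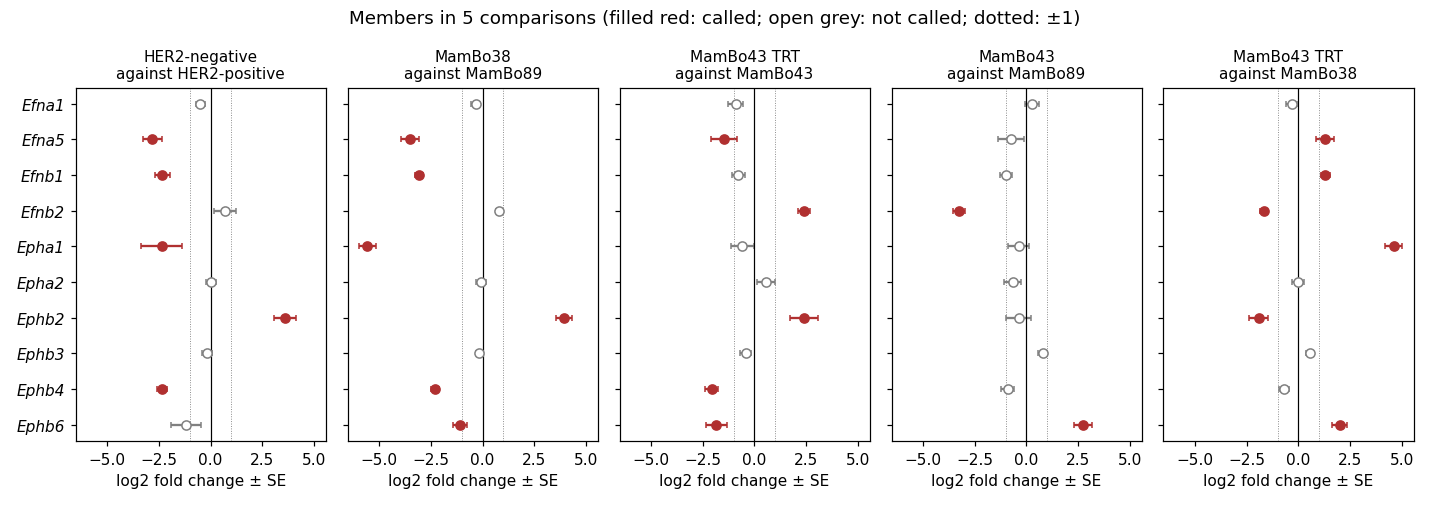
Log2 fold change (points) with its standard error (bars) of each member in 5 comparisons, with filled red points called and open grey points not called. Ephb2 and Efnb2 lie to the right in MamBo43 TRT against MamBo43 (2.39 each) and Epha1 to the far left in MamBo38 against MamBo89 (-5.57).

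The make-up of the family in each line was read per length, as CPM per kb of GENCODE exon, the scale on which levels of different genes can be compared. The 14 receptor genes summed to 171 to 206 CPM per kb in MamBo89, 164 in MamBo43, 82.1 and 95.3 in MamBo43 TRT and 61.8 to 95.5 in MamBo38. The 8 ephrin genes summed to 78.0 to 90.3, 59.2, 25.1 to 33.4 and 28.6 to 34.4 CPM per kb in that order. Both sums were thus lower in each HER2-negative library than in each HER2-positive library.

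Among receptors, Ephb4 made up a mean of 54.4% of the per-length total in MamBo89, 34.9% in MamBo43, 15.2% in MamBo43 TRT and 30.8% in MamBo38. Epha2 made up 24.5%, 18.0%, 49.4% and 59.2%, so the leading receptor was Ephb4 in MamBo43 and in each MamBo89 library and Epha2 in each HER2-negative library. Ephb6 made up 31.2% of the receptor total in MamBo43, second to Ephb4, and 3.86% in MamBo89. Epha1 made up 13.9% in MamBo89, 16.3% in MamBo43 TRT and 0.850% in MamBo38. Although Ephb2 was higher in HER2-negative libraries, it remained a minor receptor at 1.49% of the total in MamBo38 and 0.323% in MamBo43 TRT. The ratio of Ephb4 to Ephb2 per kb was 913 to 3101 in MamBo89, 1085 in MamBo43, 94.4 and 27.7 in MamBo43 TRT and 19.2 to 22.6 in MamBo38.

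Among ephrins, Efna5 and Efnb1 led in MamBo89 with means of 27.9% and 27.5%, the first in the AG3 clone and the second in the other 3 libraries, and Efna1 led in MamBo43 (37.6%), MamBo43 TRT (41.1%) and MamBo38 (47.2%). Efnb2 made up 0.761% of the ephrin total in MamBo43, 5.10% in MamBo89, 8.28% in MamBo43 TRT and 24.2% in MamBo38, where it was the ephrin next to Efna1. Within the 4 MamBo38 libraries the share of Efnb2 varied from 23.3% to 25.6%. Lengths of the longest coding transcript in place of all exons moved no member's share by over 1.5 times. In MamBo89 replicate 4 they put Efna1 above Efnb1.

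**Figure D3:**
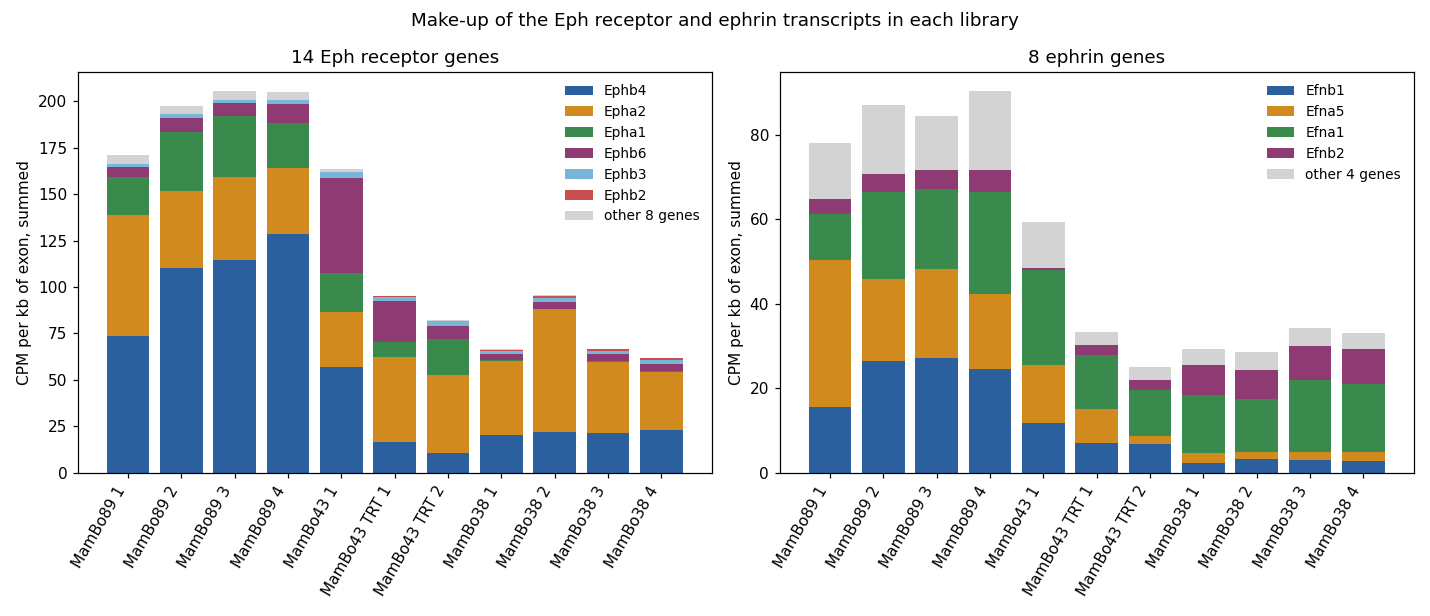
Per-length levels (CPM per kb of exon) of the receptor genes (left) and the ephrin genes (right), stacked in each library, with genes outside the 10 members in grey. The receptor bars reach 164 to 206 in HER2-positive and 61.8 to 95.5 in HER2-negative libraries, with Ephb4 at the base of each bar.

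The effect of trastuzumab was compared between lines, since MamBo89 and MamBo38 kept their HER2 status under it and MamBo43 did not. None of the 13782 genes tested was called between treated and untreated libraries within MamBo89 or MamBo38 by edgeR (724 and 230 had an unadjusted p under 0.05), so no member was, while 3927 genes were called within MamBo43. The members' log2 effects ran from -0.74 (Ephb2) to 0.46 (Efna1) in MamBo89 and from -0.62 (Epha2) to 0.71 (Epha1) in MamBo38. The untreated MamBo89 arm paired the AG3 clone with replicate 2. The untreated MamBo38 arm held both codes, while the treated libraries had the second code alone. Trastuzumab therefore cannot be fully told apart from the clone in MamBo89 or from the code in MamBo38. Untreated MamBo38 replicates 1 and 2 had 186 and 308 CPM of Epha2 and 2.35 and 1.0 of Epha1. The tests of the difference itself set MamBo43 against MamBo89 and against MamBo38.

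Against MamBo89, the effect in MamBo43 was higher for 2 members and lower for 4, where 11.1% of all genes were called higher and 11.2% lower. The differences on the log2 scale were 2.09 for Efnb2 (SE 0.30, edgeR adjusted p = 0.0059) and 3.13 for Ephb2 (SE 0.90, 0.0497). They were -2.48 for Ephb4 (SE 0.41, edgeR adjusted p = 0.0093), -2.20 for Ephb6 (0.0764), -1.37 for Efna1 (0.0722) and -1.08 for Efnb1 (0.0998). Against MamBo38, the effect was higher for 2 members (Efnb2 and Ephb2) and lower for 1 (Ephb4), where 11% of all genes were called higher and 8.63% lower. Those differences were 2.15 for Efnb2 (SE 0.30, edgeR adjusted p = 0.0040), 2.32 for Ephb2 (SE 0.83, 0.0993) and -2.13 for Ephb4 (SE 0.41, 0.014). Both tests use the same MamBo43 libraries. Efnb2 and Ephb4 stayed called in all 10 fits that left out a library, in both tests, while Ephb2 stayed called in 8 against MamBo89 (lost without MamBo43 TRT replicate 2 or MamBo89 replicate 3) and in 3 against MamBo38 (without MamBo43 TRT replicate 1 or MamBo89 replicates 1 or 2). Against MamBo89, Efna1 stayed called in 5 of these fits (lost without MamBo38 replicates 3 or 4, either MamBo43 TRT library or MamBo89 replicate 4), Ephb6 in 4 (lost without any MamBo38 library or MamBo89 replicates 1 or 4) and Efnb1 in 1 (without MamBo89 replicate 2). Without MamBo43 TRT replicate 1, Ephb6 was at -3.31, and Efna5, otherwise not called, was called at -2.44 against MamBo89 and -2.88 against MamBo38.

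**Figure D4:**
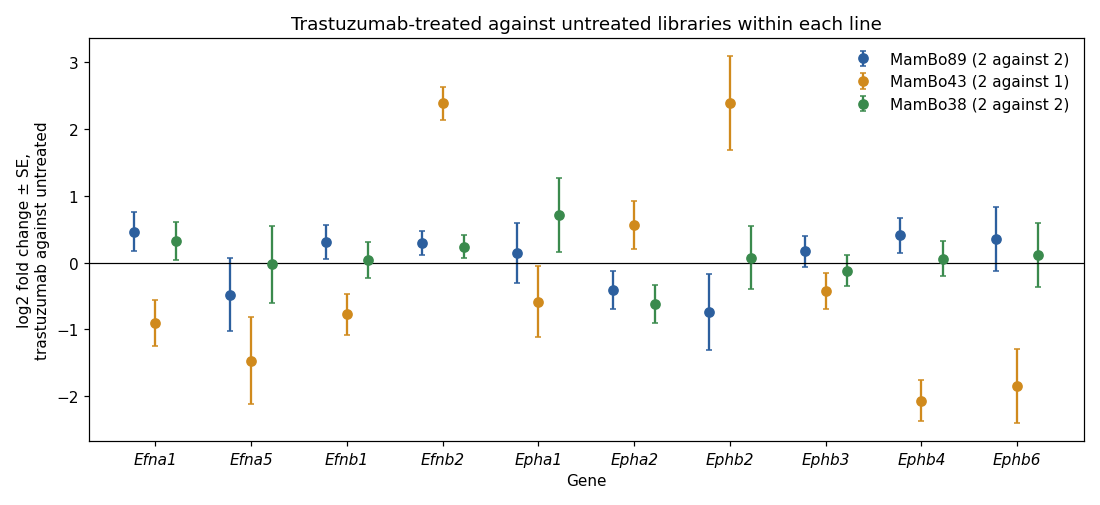
Log2 fold change of trastuzumab-treated against untreated libraries (points) with its standard error (bars) for each member in MamBo89, MamBo43 and MamBo38. Ephb4 lies at 0.41 in MamBo89, 0.06 in MamBo38 and -2.07 in MamBo43, and Efnb2 at 0.29, 0.24 and 2.39.

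The 2 MamBo43 TRT libraries differ in schedule, and each has no replicate, so their differences were not tested and the exact intervals given here (95%) cover counting error only. After withdrawal, Efna5 was 4.33-fold (3.69 to 5.10), Ephb6 3.21-fold (2.94 to 3.52) and Ephb4 1.62-fold (1.5 to 1.74) the level at 60 days, and in each case that put the withdrawn library nearer to untreated MamBo43. Epha1 and Ephb2 were higher at 60 days, by 2.41-fold (2.20 to 2.63) and 2.11-fold (1.49 to 3.03). For Ephb2 the withdrawn library was again nearer to untreated MamBo43, while for Epha1 the 60-day library was nearer. Epha1 was at 82.0 CPM untreated, 77.3 at 60 days and 32.1 after withdrawal. Efnb1, Efnb2 and Ephb3 had ratios from 0.965 to 1.04. In the same pair the epithelial keratin Krt18 was 8.31-fold, Epcam 5.15-fold and the adhesion gene Cdh1 2.79-fold higher after withdrawal, while the mesenchymal Vim was at 527 and 544 CPM. The part of these epithelial markers in the differences of Efna5, Ephb6 and Ephb4 was not tested.

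Of the other 12 family genes, 6 passed the filter in the HER2 comparison, of which 0 were called higher and 4 lower, where 15.8% and 17% of all genes tested were. These 4 were the receptors Epha4 and Epha7 and the A-class ephrins Efna3 and Efna4, and their levels did not overlap between the HER2 groups. Epha7 was at 41.6, 31.7, 35.1 and 32.0 CPM in MamBo89, 12.8 in MamBo43, 2.01 and 1.19 in MamBo43 TRT and 0 in all 4 MamBo38 libraries. Against the floor of 3 counts over that group, it was at least 233-fold lower in MamBo38 than in MamBo89. Efna3 fell from 6.85 to 23.3 CPM in HER2-positive libraries to 1.14 to 3.41 in HER2-negative ones (log2 fold change -2.99, SE 0.42, edgeR adjusted p = 1.7e-04), and Efna4 had a log2 fold change of -1.81 (SE 0.35, edgeR adjusted p = 0.0013). Epha3, Epha6, Epha10 and Ephb1 had at most 0.389 CPM in any library.

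Genes that act with the receptors and ephrins were read as 3 lists. Of 25 genes of forward signalling, 23 were tested in the HER2 comparison, with 2 called higher and 8 lower (15.8% and 17% of all genes) and a median log2 fold change of -0.34 (-0.04 over all genes). Nck2, an adaptor that couples receptors to actin, fell from 383 to 595 CPM in HER2-positive libraries to 29.0 to 71.2 in HER2-negative ones (log2 fold change -3.14, SE 0.22, edgeR adjusted p = 3.0e-06). Grb7, an adaptor of receptor tyrosine kinases, had -4.26 (SE 1.20, edgeR adjusted p = 0.0116). Chn2, a protein that switches off Rac, was at 0.822 to 6.23 CPM in HER2-positive libraries and at 0 in 5 of the 6 HER2-negative libraries. The 2 called higher were Fyn, a Src-family kinase (log2 fold change 1.82, SE 0.17, edgeR adjusted p = 1.4e-05), and Kalrn, an exchange factor for Rac (1.84, SE 0.28, edgeR adjusted p = 2.7e-04). Src itself was at 59.9 to 94.6 CPM throughout and was not called.

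Of 6 genes of reverse signalling, 4 were tested, and 1 was called higher (Ptpn13, a phosphatase that acts on B-class ephrins) and 0 lower, with a median of -0.53. Sdcbp and Pick1, which bind B-class ephrins, were at -0.64 (edgeR adjusted p = 4.5e-04) and -0.92 (0.0028), under the fold minimum. Ptpn13 was at 14 to 35.2 CPM in HER2-positive and 74.0 to 106 in HER2-negative libraries (log2 fold change 1.51, SE 0.22, edgeR adjusted p = 2.4e-04). Of 7 proteases and phosphatases of the pathway, 6 were tested, with 1 called higher and 2 lower and a median of -0.52. The same shares and median of all genes stand beside both of these lists. Rhbdl2, a membrane protease, rose by a log2 fold change of 2.19 (SE 0.39, edgeR adjusted p = 7.3e-04). Ptprf, a receptor phosphatase, was at 864 to 1675 CPM in HER2-positive libraries, 259 and 84.3 in MamBo43 TRT and 0 to 0.192 in MamBo38 (log2 fold change -4.66, SE 1.92, edgeR adjusted p = 0.0606), and Ptpn1, an intracellular phosphatase, fell by 1.14 on the log2 scale (edgeR adjusted p = 8.0e-05). The lists were chosen with results of these data known, and their counts and medians are descriptions.

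**Figure D5:**
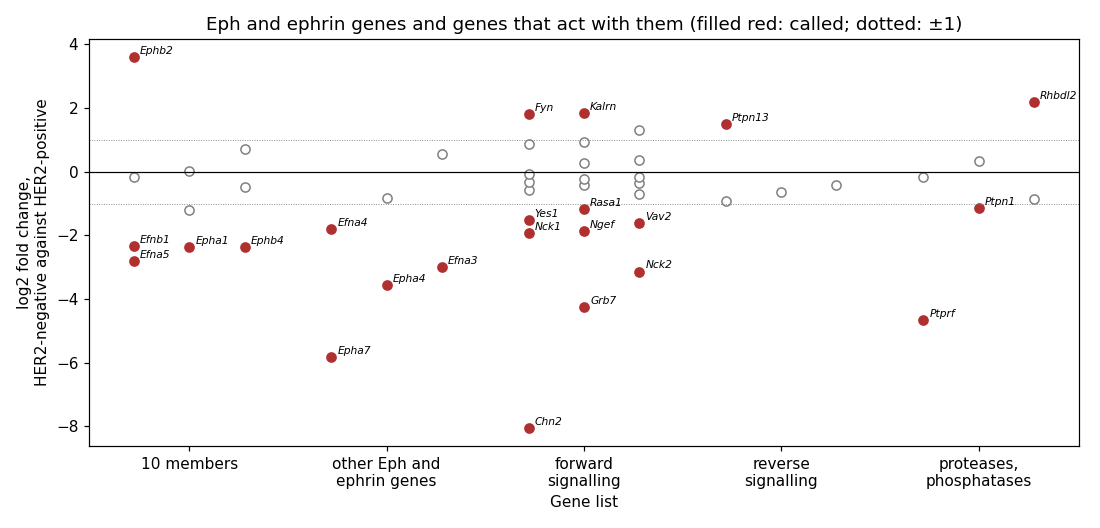
Log2 fold change between HER2-negative and HER2-positive libraries for the tested genes of 5 lists (points), with filled red points called and named and open grey points not called. Of the members Ephb2 is the point at 3.59, and among the partners Chn2, Ptprf, Grb7 and Nck2 lie lowest.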

How the data were processed

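The authors prepared unstranded TruSeq libraries from total RNA of cell pellets and, by the submitters' processing notes, used STAR 2.5, RSEM 1.3.0 and the mm10 build. The deposited table holds whole, unnormalized counts per gene, 1 column a library, for 21846 genes. Samples were grouped from the labels, with HER2 status as in the study's methods. Genes were kept by edgeR's filterByExpr (minimum count 10, minimum total 15) and fitted with edgeR 4.0.16 (TMM, quasi-likelihood, Benjamini-Hochberg adjustment over all genes tested, R 4.3.3) in 3 designs: HER2 status (6 against 5 libraries), 4 groups over 11 libraries, and 6 groups of line by treatment for the interactions. SE is the size of the log2 fold change over the square root of F. The scripts were tested on simulated data. Alternatives were DESeq2 1.42.0, other scalings, no filter, a threshold of 0.05, leaving out each library, the code in the library name as a covariate or a restriction, and tumor of origin as a covariate. Reads could not be told apart by strand. Exon lengths came from GENCODE M21 and promoters from RefSeq GRCm38.p6, in which all 10 members matched. Named partners were the 4 with the largest change in each direction among those called without overlap, with others chosen after their values were seen. The members and gene lists were chosen with earlier results of these data known. Depth (17040454 to 27127662 counts a library) put the floor of 3 counts at 0.114 to 0.179 CPM, and intervals and floors cover counting error only.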

Additional observations from a re-analysis of the deposited data

Results flagged for a closer look

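Of 40 checks of a member's level within a group of 4 to 6 libraries, 3 had a highest library far from the others. The measure was Dixon's ratio, the gap to the nearest library over the whole range. Chance gives about 1 in 20 where libraries are drawn alike. All 3 lie in HER2 groups, which pool lines and schedules, and the groups checked share libraries. Efna5 in MamBo43 TRT replicate 1 stood apart in the HER2-negative group (ratio 0.924). Ephb6 stood apart in MamBo43 in the HER2-positive group (0.894) and in MamBo43 TRT replicate 1 in the HER2-negative group (0.798).

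The effect of trastuzumab differed between lines in a test of the difference for 6 members against MamBo89 and 3 against MamBo38. Of all genes, 11.1% were called higher and 11.2% lower against MamBo89, and 11% and 8.63% against MamBo38. In 10 fits that left out a library, Efna1 stayed called against MamBo89 in 5, Ephb6 in 4 and Efnb1 in 1. Ephb2 stayed called in 8 against MamBo89 and in 3 against MamBo38, and Efnb2 and Ephb4 in all. In MamBo43 against MamBo89, the log2 difference was -1.37 for Efna1, -1.08 for Efnb1, 2.09 for Efnb2, 3.13 for Ephb2, -2.48 for Ephb4 and -2.20 for Ephb6. In MamBo43 against MamBo38, it was 2.15 for Efnb2, 2.32 for Ephb2 and -2.13 for Ephb4. The untreated MamBo43 arm was 1 library in both tests.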

How the results depend on the processing

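Of the members' log2 values recomputed under alternatives, 1086 kept their direction and side of the threshold, 70 lost a call, 24 gained one and 20 changed sign, and for those that changed the cause was not tested. Members called numbered 5 in the HER2 comparison (4 to 6 when a library was left out), 6 in MamBo38 against MamBo89 (5 to 6) and 2 in MamBo43 against MamBo89 (2 to 3). In MamBo43 TRT against MamBo43 they numbered 5 (3 to 5, with 3 without MamBo43 TRT replicate 2), and 3 with the first-code libraries alone. In MamBo43 TRT against MamBo38 they numbered 6 (4 to 6), and 2 with that code alone. For the trastuzumab effect against MamBo89 they numbered 6 (3 to 7, with 3 without MamBo38 replicate 3 or 4, MamBo43 TRT replicate 2 or MamBo89 replicate 4) and 3 at an adjusted p under 0.05. Against MamBo38 they numbered 3 (2 to 6, with 5 without MamBo43 TRT replicate 1 and 6 without MamBo89 replicate 1 or 2), 6 with DESeq2 and 5 with no filter. The changes of sign were in members not called, apart from Efna5 in MamBo43 TRT against MamBo38 (-0.12 to 1.99 when a library was left out). Epha2 was at -0.0483 with total counts and -0.12 to 0.23 when a library was left out in the HER2 comparison, and at 0.50 with the code as a covariate, 0.50 with the first code alone and -0.36 to 0.12 when a library was left out in MamBo38 against MamBo89. It was at -0.13 to 0.27 in MamBo43 TRT against MamBo38. Ephb3 was at 0.0606 (covariate), 0.0735 (first code alone) and -0.26 to 0.0176 in the HER2 comparison and at 0.0319 and 0.033 in MamBo38 against MamBo89. Ephb2 was at -0.58 to 0.0546 in MamBo43 against MamBo89. No scaling moved the median of all genes by over 0.1. The labels carry no replicate numbers to pair libraries by, and a fit with the trastuzumab schedule as a block was not run. The second code holds MamBo38 libraries alone, so within it no comparison between lines could be made.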

Other observations

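Some partners of the family differed between the lines outside the HER2 comparison, and these were chosen after their values were seen. Pik3r1, the regulatory subunit of PI 3-kinase, was at 471 CPM in MamBo43 and 119 to 128 in MamBo43 TRT (log2 fold change -1.93, SE 0.28, edgeR adjusted p = 9.8e-04). Grip1, a scaffold that binds B-class ephrins, was at 3.48 to 4.66 CPM in MamBo89 replicates 2 to 4, 0.438 in the AG3 clone and at most 0.192 in the other lines. Adam10, a protease that cleaves ephrins, was at 204 to 262 CPM in MamBo89 and 102 to 130 in MamBo38 (log2 difference -1.04, SE 0.11, edgeR adjusted p = 1.9e-05), with 138 CPM in MamBo43 and 130 and 132 in MamBo43 TRT.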
